A study of Arabidopsis thaliana with 24 samples.

Results

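The root and the shoot of hy5-215 seedlings grown at 22 °C were compared, gene by gene, to describe how the organs of Arabidopsis thaliana differ where HY5 is mutated. The 6 libraries compared, 3 from root and 3 from shoot, were chosen by genotype, organ and temperature alone and are 6 of the 24 libraries of the study. Of the 33977 gene identifiers counted, 17016 had enough counts in these 6 libraries to be tested. The study followed how roots and shoots answer a warm ambient temperature, in wild type Col-0, the reference accession, and in hy5-215, a mutant allele of HY5. RNA was counted by 3′Tag-Seq, in which a read comes from near the 3′ end of a transcript, so that a count does not grow with the length of the gene.

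The first group was the root of hy5-215 seedlings and the second was the shoot of hy5-215 seedlings, both grown in continuous white light and kept at 22 °C until harvest. Set beside them were the hy5-215 root and shoot after 4 h at 28 °C, and the Col-0 root and shoot at 22 °C, with 3 libraries in each group. The labels give seedlings of 5 days, name the upper tissue hypocotyl and give a genotype that follows the organ, hy5 in the root and wild type in the shoot, which the titles and descriptions contradict. The genotype was therefore taken from the titles. The methods of the study call the upper tissue shoot, made of hypocotyl and cotyledons, and describe biological replicates. Labels and methods also differ slightly in seedling age and light. The treatment lasts 4 h in the sample labels and 24 h in the design text, and the 4 h of the labels and methods are used here. Nothing in the labels says how many plants were pooled in a library, and p-values measure the spread between these 3 libraries of each organ. In whole organs, fewer cells of a type and less RNA per cell cannot be told apart.

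A seedling shoot is built for photosynthesis. Its cotyledon cells hold chloroplasts, its epidermis is sealed by a wax cuticle and pierced by stomata, and its sugars are loaded into the phloem for export. A root grows from a stem cell niche behind a root cap, takes up water and ions through root hairs, and controls their passage inwards at the endodermis with the Casparian strip and suberin. HY5 is a bZIP transcription factor that promotes light-grown development, binds DNA elements with an ACGT core such as the G-box, and is best known for activating genes of flavonoid synthesis and of the chloroplast. It is active in both organs and can move from the shoot to the root.

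The libraries held 2296016 to 2956078 counts in root and 2635000 to 3781032 in shoot. The 10 most abundant genes took up 3.02% to 3.14% of the root counts and 9.09% to 9.14% of the shoot counts. HY5 itself (chr5:3593335-3595073, minus strand, TAIR10.1) was counted at 12.9, 17.4 and 10.4 CPM in root, against 18.7, 19.0 and 24.7 CPM in shoot. The Col-0 values were 45.5, 49.5 and 63.0 CPM in root, against 31.4, 25.3 and 32.9 CPM in shoot. The allele does not delete the gene and tags are still counted at its 3′ end, so these counts do not check the genotype labels. Among the markers used to check the organ labels, 12 of 13 shoot markers tested were higher in shoot and 15 of 17 root markers tested were higher in root. The exceptions were KAN1, SHR and SCR. Summed over all 14 shoot markers, root libraries held 397, 459.9 and 474 CPM, against 57552, 59256 and 57628 CPM in shoot libraries. For all 20 root markers the sums were 571, 587 and 636 CPM in root and 147, 125 and 122 CPM in shoot. CPM are counts scaled to a library of common size, with TMM factors over all 24 libraries. The shoot markers in root thus stood at 0.763% of their shoot level, and 1 of them had no count in any root library. The part that shoot material in the root samples has in low root levels was not tested.

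Root and shoot of hy5-215 differed at 7087 of the 17016 genes tested, or 41.6%, where a call needed a change of at least 2-fold and an adjusted p no higher than 0.05 (edgeR, quasi-likelihood). Higher in root were 2949 genes (17.3%), and higher in shoot were 4138 (24.3%). With the adjusted p alone, 11105 genes (65.3%) were called. The division between the directions depends on the scaling of the libraries: 41.61% of the calls were higher in root with TMM scaling and 67.72% with library size alone, where the median log2 fold change of all genes was 0.69 instead of 0.01. The shares below use TMM scaling and so are relative to the typical gene. For 2912 of the 2949 and 4107 of the 4138 genes the libraries of the organs did not overlap, against 5743 and 6054 of all genes tested (33.75% and 35.58%). Among the genes named below as higher in an organ, only the libraries of FLS1 overlapped.

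Differences towards the shoot were larger. The median log2 fold change, root over shoot, was 2.0 among the genes higher in root and -2.65 among those higher in shoot. A change of at least 32-fold was fitted for 48 genes higher in root and 877 genes higher in shoot, and one of at least 64-fold for 18 and 587. Genes higher in root held 20.39% of the counts of the root libraries and 3.498% of those of the shoot libraries. Genes higher in shoot held 7.224% of the root counts and 56.78% of the shoot counts. In 342 of the genes higher in root, the shoot had at most 3 counts in every library, and in 479 of the genes higher in shoot, the root had. Such genes are described by a lower bound, the mean level of the higher organ over 3 counts per library of the other. They had enough counts to be tested only through the higher organ, which fixed their direction.

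Among genes with more than 3 counts in the lower organ, the largest change towards the root was at AT1G52070, a mannose-binding lectin, with 101, 80.6 and 66.6 CPM in root, against 0.982, 2.38 and 1.28 CPM in shoot (log2 fold change 5.57 ± 0.27, SE, adjusted p = 2.65e-17, edgeR). AGP30, a cell wall arabinogalactan protein known from roots, had 178, 140.2 and 99.9 CPM in root, against 2.95, 3.73 and 2.98 CPM in shoot (5.35 ± 0.25). BS1, a small helix-loop-helix protein also known as PRE3, had 84.6, 78.1 and 68.0 CPM in root, against 3.44, 1.70 and 0.850 CPM in shoot (5.25 ± 0.26). Every root library was far above every shoot library for these 3 genes. AT2G39530 (4.83 ± 0.28), annotated as a member of an uncharacterized protein family (UPF0497), and AT2G41480 (4.67 ± 0.21), a peroxidase, followed.

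AT5G42530, an uncharacterized protein, had 3.33, 3.31 and 3.82 CPM in root, against 774, 713 and 836 CPM in shoot the largest change towards the shoot among genes with more than 3 counts in root (log2 fold change -7.83 ± 0.17, adjusted p = 2.05e-25, edgeR). FBA1, a plastid aldolase of the Calvin cycle, had 5.18, 5.52 and 9.02 CPM in root, against 1338, 1336 and 1368 CPM in shoot (-7.73 ± 0.17). LHCB2.3, a chlorophyll-binding protein of the photosystem II antenna, had 8.87, 12.1 and 9.37 CPM in root, against 2425, 2261 and 1645 CPM in shoot (-7.72 ± 0.19). The root libraries stood at or below 12.1 CPM for all 3, while no shoot library was below 713 CPM. ENH1, a plastid rubredoxin-like protein, and AT3G05730, a defensin-like protein, were at -7.70 ± 0.21 and -7.68 ± 0.17.

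The most abundant transcripts also differed in kind. In root the most abundant were PYK10, AT2G43150, AT5G60390, PIP1B and GAPC2. PYK10, the β-glucosidase that fills the ER bodies of root cells, had 3508, 3437 and 3760.3 CPM in root, against 1241, 1305 and 1046 CPM in shoot (log2 fold change 1.53 ± 0.12). AT2G43150, a proline-rich extensin-like cell wall protein, had 3455, 3508 and 3359.7 CPM in root, against 313, 341 and 342 CPM in shoot (3.32 ± 0.12). The other 3 did not pass the 2-fold rule: the elongation factor gene AT5G60390 was at 0.62 ± 0.12, the aquaporin PIP1B at 0.68 ± 0.11 and the glycolytic GAPC2 at -0.24 ± 0.11, the sign of which turned to 0.45 with library size alone.

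In shoot the most abundant were RBCS1A, CAB1, LHB1B2, PSBR and RCA, all of photosynthesis. RBCS1A (chr1:25048158-25049667, plus strand), a small subunit of Rubisco, had 153, 184 and 191 CPM in root, against 26099, 28910.4 and 30174 CPM in shoot (log2 fold change -7.38 ± 0.16). CAB1, an antenna protein, had 123, 124 and 108 CPM in root, against 16537, 16059 and 16649 CPM in shoot. RCA, the Rubisco activase, had 55.4, 73.2 and 65.9 CPM in root, against 10668, 10374 and 11154 CPM in shoot. Whether reads were counted by strand is not stated. RCA, CAB1, LHB1B2, PSBR, LHCB2.3 and PYK10 overlap a gene on the other strand, whose reads could be included. The same is true of AT5G60390 and AT3G05730 and, among the genes that follow, of GOX1, GLU1, AS1, ESB1, FAR1, SKOR, ABCB4, XCP1 and LAC17.

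**Figure D1:**
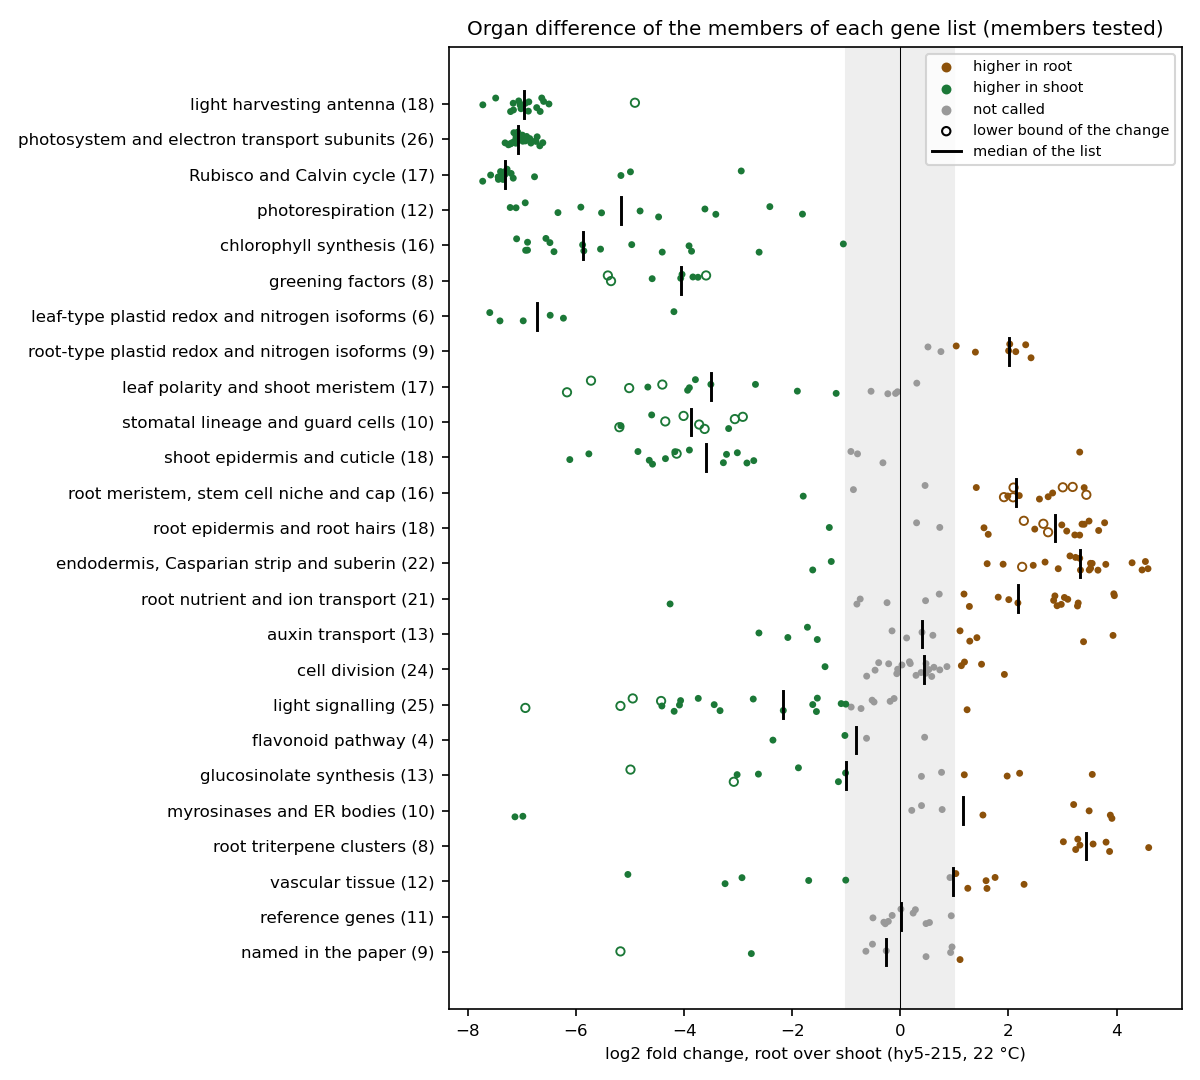
Log2 fold change of root over shoot in hy5-215 at 22 °C for the tested members of 25 gene lists. Each point is a gene, open points are lower bounds for genes with at most 3 counts in every library of an organ, black bars are list medians with those bounds, and the grey band spans changes under 2-fold. The medians of the 3 photosynthesis lists lie between -7.32 and -6.97, that of the endodermis list at 3.33 and that of the reference genes at 0.01.

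Photosynthesis was described by 61 nuclear genes in 3 lists. All 61 were tested and all 61 were higher in shoot, against 24.3% of all genes tested, with no overlap between the organs. Their median log2 fold change was -7.08, against 0.01 over all genes, with quartiles of -7.22 and -6.83. The 18 antenna genes had a median of -6.97, the 26 subunits of the photosystems and electron transport one of -7.07, and the 17 genes of Rubisco and the Calvin cycle one of -7.32. Together the 61 genes summed to 2132, 2427 and 2464 CPM in root libraries, against 275702, 269584 and 247528 CPM in shoot libraries. The level of the sum in root was 0.886% of that in shoot.

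The spread among these genes was small, with a clear exception. AT3G60750, a plastid transketolase, which serves the Calvin cycle and the pentose phosphate pathway, had 286, 272 and 239 CPM in root, against 1920.2, 1969 and 2049 CPM in shoot, the smallest change of the 61 (-2.94 ± 0.11). FBA2, another plastid aldolase, had 14.4, 17.1 and 21.2 CPM in root, against 3435, 3258 and 3103 CPM in shoot (-7.58 ± 0.16), and PSAE-1, a stromal subunit of photosystem I, had 20.7, 26.5 and 29.1 CPM in root, against 4269.6, 4076 and 3469 CPM in shoot (-7.31 ± 0.16). AT3G60750 was the most abundant Calvin cycle transcript in root, above the Rubisco genes.

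Photorespiration, the pathway that recycles the product of oxygenation by Rubisco, showed a wider range. All 12 genes tested of 13 were higher in shoot, against 24.3% of all genes tested, with a median of -5.17. GOX1, a peroxisomal glycolate oxidase, had 14.4, 17.1 and 13.9 CPM in root, against 2066, 2155 and 2395 CPM in shoot (-7.22 ± 0.15). GLDP2, a P-protein of glycine decarboxylase, which also serves one-carbon metabolism, had 165, 165 and 159 CPM in root, against 519, 530.4 and 613 CPM in shoot (-1.81 ± 0.11). GLDP2 was the most abundant photorespiration transcript in root.

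Chlorophyll synthesis genes were higher in shoot at all 16 tested of 17, against 24.3% of all genes tested (median -5.87). GUN5, the H subunit of magnesium chelatase, had 12.9, 18.8 and 15.3 CPM in root, against 1815, 1744 and 1955 CPM in shoot (-6.90 ± 0.15). HEMA1, a glutamyl-tRNA reductase at the entry of tetrapyrrole synthesis, which also leads to haem, had 32.9, 29.5 and 42.7 CPM in root, against 482, 501 and 539 CPM in shoot (-3.91 ± 0.13). GUN4, an activator of the chelatase, was at -7.10 ± 0.20 and CRD1, of the cyclase step, at -6.93 ± 0.15.

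The greening factors, regulators that promote chloroplast development, were higher in shoot at all 8, against 24.3% of all genes tested. The median of the list was -4.33, or -4.05 with 3 genes at their bounds. These 3 could be tested only through their shoot counts, which fixed their direction. GNC and CGA1, a pair of GATA factors, had no count in any root library, against 34.9, 45.5 and 41.2 CPM for GNC and 10.3, 16.3 and 9.35 CPM for CGA1 in shoot, at least 40.8-fold and 12.1-fold lower in root. GPRI1, also known as GLK1, had 1.11, 0 and 0 CPM in root, against 49.1, 43.1 and 34.4 CPM in shoot, at least 42.5-fold lower in root. Its paralog GLK2 was measured in both organs, at 10.4, 9.39 and 10.8 CPM in root, against 141, 134 and 119.9 CPM in shoot (-3.74 ± 0.16). Sigma factors of the plastid RNA polymerase ranged from -4.59 (SIGF) to -3.84 (SIGA, also known as SIG1).

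Plastids of both organs reduce nitrite and assimilate ammonium, with leaf-type and root-type isoforms of the proteins that do so. The root-type list is not of plastid proteins alone, as it also holds the cytosolic glutamine synthetases GSR 1, GSR2, GLN1.3 and GLN1;4. Of these, GSR 1, GLN1.3 (2.14) and GLN1;4 (1.39) were among the root-type genes higher in root. All 6 leaf-type genes were higher in shoot, against 24.3% of all genes tested (median -6.73). Of 9 root-type genes, 7 were higher in root, against 17.3% of all genes tested, and none was higher in shoot (median 2.0). The leaf ferredoxin FED A had 41.4, 50 and 54.8 CPM in root, against 4304, 4414 and 3932 CPM in shoot (-6.48 ± 0.15). The root ferredoxin FD3 had 363, 341 and 285 CPM in root, against 78.1, 81.1 and 76.1 CPM in shoot (2.02 ± 0.12). The more abundant ferredoxin of each organ was thus the less abundant one of the other.

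The enzymes around them were divided in the same manner. FNR2, a leaf ferredoxin-NADP reductase, was at -7.41 ± 0.16 and its root counterpart RFNR2 at 2.0 ± 0.16. GLU1, the ferredoxin-dependent glutamate synthase of photosynthetic tissue, had 5.91, 6.35 and 7.28 CPM in root, against 1212, 1182 and 1294 CPM in shoot (-7.59 ± 0.16), while GLU2 had 126, 118 and 123 CPM in root, against 22.1, 21.4 and 23.0 CPM in shoot (2.42 ± 0.14). GS2, the plastid glutamine synthetase, was at -4.19 ± 0.13 and the cytosolic GSR 1 at 2.32 ± 0.13. GSR2 and GLT1 did not pass the fold rule, at 0.51 ± 0.10 and 0.75 ± 0.10.

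**Figure D2:**
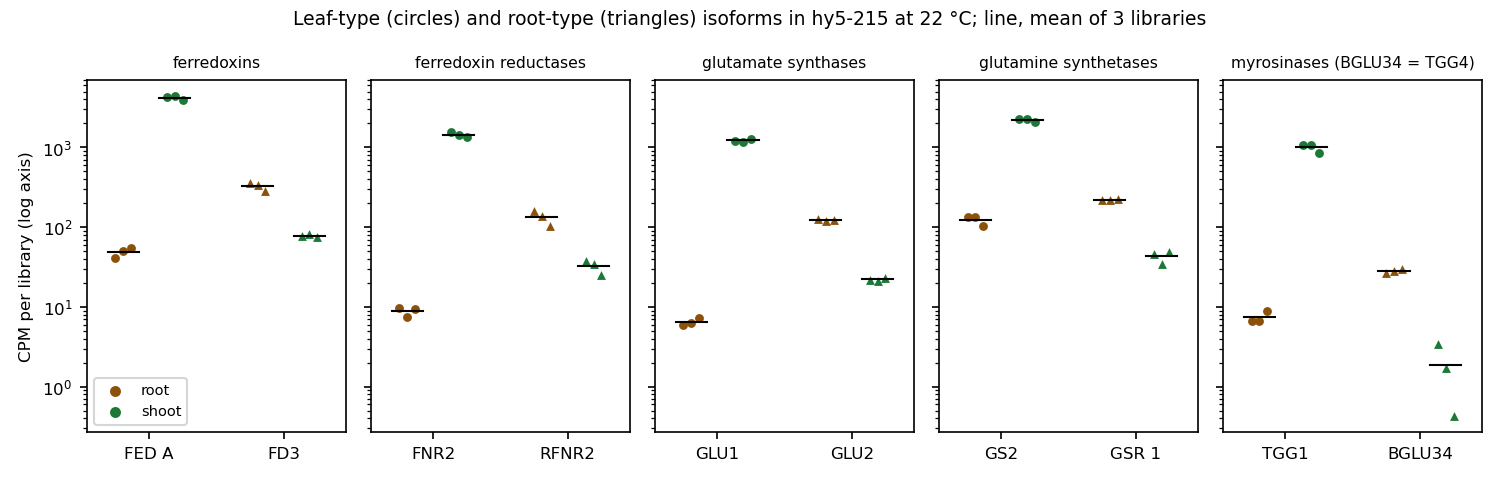
CPM in each hy5-215 library at 22 °C (log axis) for 5 pairs of isoforms, root libraries left of shoot libraries, with the leaf-type gene as circles, the root-type gene as triangles and the mean of 3 libraries as a line. In every pair the leaf-type gene is higher in shoot and the root-type gene is higher in root, with no overlap between organs.

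Development genes of the leaf were higher in shoot at 12 of 17 tested of 25, and none was higher in root (median -3.50). Over all genes tested, the shares were 24.3% and 17.3%. YAB3 and YAB5, YABBY factors of the lower leaf side, had 0, 0.276 and 0.694 CPM in root, against 79.1, 65.5 and 69.3 CPM in shoot for YAB3 and 0, 0 and 0.347 CPM in root, against 32.4, 34.6 and 29.3 CPM in shoot for YAB5, at least 71.8-fold and 32.4-fold lower in root. AS1, a MYB factor of leaf development, had 30.7, 30.9 and 28.4 CPM in root, against 106, 97.1 and 125 CPM in shoot (-1.90 ± 0.14). AN3, a growth coactivator of leaf primordia that is also active in roots, overlapped between the organs at 51.4, 43.9 and 42.0 CPM in root, against 41.3, 39.0 and 61.2 CPM in shoot (-0.09 ± 0.16, adjusted p = 0.646, edgeR), and its sign turned with library size alone (0.59) or without the third shoot library (0.12).

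All 10 stomatal genes tested of 18 were higher in shoot, against 24.3% of all genes tested. For 7 of them the root libraries had at most 3 counts each, so the fitted median of -6.58 is -3.87 with the bounds. These 7 could be tested only through their shoot counts, which fixed their direction. FMA, also known as FAMA, the factor that commits guard cells, had no count in root and 10.8, 13.9 and 11.9 CPM in shoot, at least 12.3-fold lower in root. ICE1, a partner of the stomatal factors with a wider role in cold, had 2.59, 5.80 and 8.67 CPM in root, against 56.0, 43.4 and 53.6 CPM in shoot (-3.18 ± 0.24).

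Of the genes of the shoot epidermis and cuticle, 14 of 18 tested were higher in shoot and 1 in root (median -3.59). Over all genes tested, the shares were 24.3% and 17.3%. LP1, a lipid transfer protein, had 18.5, 16.3 and 16 CPM in root, against 889, 948 and 826 CPM in shoot (-5.76 ± 0.14). KCS6, an elongase of wax synthesis, had 5.91, 5.25 and 4.86 CPM in root, against 372, 369 and 340.01 CPM in shoot (-6.11 ± 0.16). The gene against the rest was CER4, a fatty acyl reductase known from wax synthesis, which had 7.39, 6.90 and 7.98 CPM in root, against 0.491, 1.36 and 0 CPM in shoot (3.32 ± 0.55).

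Root lists went the other way. Of the genes of the root meristem, stem cell niche and cap, 13 of 16 tested of 20 were higher in root. Over all genes tested, 17.3% were. The median of the list was 2.64, or 2.15 with the 6 genes at their bounds. These 6 could be tested only through the counts of the higher organ, which fixed their direction. UPB1, a bHLH factor at the border between proliferation and elongation, had 39.9, 53.0 and 40.9 CPM in root, against 8.35, 7.81 and 12.3 CPM in shoot (2.2 ± 0.21). The genes named next were close to the detection floor in shoot. SMB, a NAC factor of the root cap, had 11.1, 13.5 and 9.71 CPM in root, against 0.491, 0.679 and 0.425 CPM in shoot, at least 9.11-fold higher in root. RGF3, a peptide that maintains the meristem, had 13.3, 9.66 and 7.28 CPM in root, against 0.982, 1.02 and 0 CPM in shoot, at least 8.03-fold higher in root.

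Some genes named for roots were not particular to them. SCR, which specifies the endodermis and also acts in the shoot, had 42.5, 35.1 and 39.9 CPM in root, against 78.6, 64.5 and 64.6 CPM in shoot, all root libraries below all shoot libraries but under 2-fold (-0.87 ± 0.14). CR4, a receptor kinase also known as ACR4 that acts in the root cap and the shoot epidermis, was higher in shoot at 3.70, 2.48 and 3.82 CPM in root, against 10.3, 12.2 and 10.6 CPM in shoot (-1.80 ± 0.34).

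Genes of the root epidermis and root hairs were higher in root at 15 of 18 tested of 20 (median 3.06, or 2.86 with bounds). Over all genes tested, 17.3% were higher in root. PRP3, a proline-rich wall protein of root hairs, had 108, 114 and 187 CPM in root, against 10.3, 15.6 and 10.6 CPM in shoot (3.40 ± 0.21). LRX1, a leucine-rich repeat extensin of root hairs, had 19.2, 22.9 and 29.5 CPM in root, against 1.96, 0.679 and 2.55 CPM in shoot (3.78 ± 0.36). RHD6, the bHLH factor that starts a hair, was at 7.02, 5.80 and 10.8 CPM in root, against 0, 0.339 and 0.425 CPM in shoot, at least 6.26-fold higher in root. TTG1, which patterns root hairs and leaf trichomes alike, was higher in shoot (-1.31 ± 0.17), though under 2-fold with library size alone (-0.63).

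Of the 22 genes of the endodermis, Casparian strip and suberin, 20 were higher in root and 2 in shoot. Over all genes tested, the shares were 17.3% and 24.3%. The median of the list was 3.41, or 3.33 with 1 gene at its bound. ESB1, a dirigent protein of the Casparian strip, had 360.04, 322 and 269 CPM in root, against 31.9, 29.5 and 36.1 CPM in shoot (3.24 ± 0.14). ABCG20 and ABCG6, transporters of suberin precursors, had 27.4, 22.6 and 24.3 CPM in root, against 0.491, 0.679 and 1.70 CPM in shoot for ABCG20 (4.58 ± 0.37) and 60.6, 68.7 and 68.3 CPM in root, against 0.982, 3.73 and 2.98 CPM in shoot for ABCG6 (4.53 ± 0.25). The 2 genes against the rest were FAR1, a fatty acyl reductase of suberin (-1.62 ± 0.32), and KCS20, an elongase that also serves cuticular wax (-1.28 ± 0.11), both under 2-fold with library size alone (-0.94 and -0.59).

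Of 21 transporters and regulators of ion uptake tested of 26, 15 were higher in root and 1 in shoot (median 2.17). Over all genes tested, the shares were 17.3% and 24.3%. HA2, a plasma membrane proton pump also known as AHA2, had 1414, 1329.8 and 1197 CPM in root, against 284, 308 and 357 CPM in shoot (2.01 ± 0.11) and was the most abundant of the list in root. IRT1, the iron uptake transporter, had 66.9, 50.2 and 56.2 CPM in root, against 2.46, 4.07 and 3.83 CPM in shoot (3.96 ± 0.23). SKOR, the channel that releases potassium into the xylem, had 37.7, 40.6 and 47.9 CPM in root, against 2.46, 2.04 and 3.40 CPM in shoot (3.95 ± 0.26). The shoot held IRT1 and SKOR at low levels, while the proton pump was the most abundant of the list in shoot too. The gene called higher in shoot was SULTR2;1, a sulfate transporter of vascular cells, at 2.22, 1.38 and 0.347 CPM in root, against 30.0, 26.8 and 18.3 CPM in shoot (-4.26 ± 0.37).

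Triterpene clusters are groups of neighbouring genes that make root metabolites such as thalianol and marneral. All 8 genes tested of 9 were higher in root, against 17.3% of all genes tested (median 3.44). Their changes were similar, from 3.02 at AT5G47980 to 4.59 at MRN1. THAS1, the thalianol synthase, had 130.1, 172 and 187 CPM in root, against 11.8, 15.6 and 11.9 CPM in shoot (3.57 ± 0.17). MRN1, the marneral synthase, had 68.0, 93.3 and 117 CPM in root, against 2.95, 2.71 and 5.53 CPM in shoot (4.59 ± 0.25). In both cases the shoot held the transcript at a low level. CYP705A5, which acts on thalianol, had 197, 228 and 275 CPM in root, against 24.1, 27.8 and 17.0 CPM in shoot (3.28 ± 0.16).

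Glucosinolates, the defence compounds of the cabbage family, are made in both organs, and their genes were divided. Of 13 tested of 14, 4 were higher in root and 7 in shoot (median -1.01), shares of 30.77% and 53.85% against 17.3% and 24.3% of all genes tested. CYP79F1 and CYP79F2 are adjacent genes whose products start aliphatic glucosinolates. CYP79F1 had no count in root and 36.8, 35.0 and 23.0 CPM in shoot, at least 31.8-fold lower in root, while CYP79F2 had 25.1, 22.1 and 7.63 CPM in root, against 3.93, 5.43 and 3.83 CPM in shoot (1.98 ± 0.36). The regulators were divided too: MYB29, of aliphatic glucosinolates, had no count in root and 9.82, 9.84 and 5.53 CPM in shoot, at least 8.46-fold lower in root, whereas MYB34, of indolic ones, had 34.0, 45.8 and 52.7 CPM in root, against 10.3, 10.2 and 7.23 CPM in shoot (2.21 ± 0.21). IMS2, a chain elongation enzyme also known as MAM3, was higher in root (3.55 ± 0.35), and CYP83B1 was the most abundant of the list in root (125, 111 and 98.5 CPM in root, against 92.3, 85.5 and 68.9 CPM in shoot, 0.39 ± 0.13, under 2-fold).

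Myrosinases, the enzymes that break glucosinolates down, were divided by paralog in the same manner. TGG1 and TGG2, known from guard cells and phloem idioblasts, were at -7.13 ± 0.17 and -6.98 ± 0.26, with 6.65, 6.63 and 9.02 CPM in root, against 1081, 1085 and 857 CPM in shoot for TGG1. BGLU34 and BGLU35, also known as TGG4 and TGG5, were at 3.91 ± 0.34 and 3.88 ± 0.38, with 26.6, 28.2 and 30.2 CPM in root, against 3.44, 1.70 and 0.425 CPM in shoot for BGLU34. BGLU21 and BGLU22, relatives of PYK10, were higher in root by 3.49 ± 0.13 and 3.21 ± 0.12.

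Lists of processes shared by both organs had calls in both directions. Of 13 auxin transport genes, 5 were higher in root and 4 in shoot (median 0.40), shares of 38.46% and 30.77% against 17.3% and 24.3% of all genes tested. EIR1, the PIN2 efflux carrier of the root tip, had 37.3, 45.3 and 48.6 CPM in root, against 3.93, 2.38 and 2.13 CPM in shoot (3.93 ± 0.26), and ABCB4, a transporter of root hair cells, had 112, 113 and 123 CPM in root, against 12.8, 9.50 and 10.2 CPM in shoot (3.39 ± 0.16). LAX1, an influx carrier, had 6.65, 5.52 and 15.3 CPM in root, against 59.4, 50.6 and 51.0 CPM in shoot (-2.62 ± 0.23). The efflux carriers PIN3, PIN4 and PIN7 were higher in shoot, at -1.72 ± 0.13, -2.08 ± 0.16 and -1.54 ± 0.14. The value of PIN7 was under 2-fold with library size alone (-0.85).

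Of 24 cell division genes, 4 were higher in root, 1 was higher in shoot and 19 did not pass (median 0.43), shares of 16.67% and 4.167% against 17.3% and 24.3% of all genes tested. With library size alone 13 were higher in root and none in shoot. CYCB3;1, a mitotic cyclin, had 6.65, 8.01 and 4.86 CPM in root, against 1.96, 1.02 and 2.13 CPM in shoot (1.93 ± 0.45). CYCD3;1, a cyclin that promotes division in leaves, had 10.4, 10.5 and 8.32 CPM in root, against 26.5, 17.6 and 31.5 CPM in shoot (-1.39 ± 0.24), under 2-fold with library size alone (-0.71).

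In the vascular list, genes of the xylem and the phloem went opposite ways. XCP1, a xylem protease, had 81.3, 66.8 and 57.9 CPM in root, against 18.2, 13.6 and 9.35 CPM in shoot (2.29 ± 0.19), and LAC17, a laccase of lignin formation, had 24.4, 15.2 and 22.2 CPM in root, against 4.42, 7.47 and 5.10 CPM in shoot (1.75 ± 0.28). SUC2, which loads sucrose into the phloem, had 17.0, 21.0 and 18.7 CPM in root, against 134, 166 and 121 CPM in shoot (-2.93 ± 0.15). SWEET11 and SWEET12, the sucrose exporters beside it, were at -5.04 ± 0.16 and -3.24 ± 0.21. In all, 6 of 12 tested of 14 were higher in root and 5 in shoot (median 0.97). Over all genes tested, the shares were 17.3% and 24.3%. APL, a phloem factor, passed only just (-1.01 ± 0.21) and lost its call without the second root library (-0.97), the third root library (-0.84) or the second shoot library (-0.86).

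Among 11 reference genes, often used because they vary little, none passed the fold rule (median 0.01). With library size alone 3 of them were higher in root. ACT2 overlapped between the organs, at 1153, 1163 and 1327 CPM in root, against 1218, 1299.8 and 1399 CPM in shoot, but ACT8 had 482, 478 and 505 CPM in root, against 243, 228 and 268 CPM in shoot (0.94 ± 0.11, adjusted p = 4.51e-09, edgeR). UBQ10 had 728, 790.1 and 892 CPM in root, against 1088, 1178 and 1049 CPM in shoot (-0.51 ± 0.11). ACT8 and UBQ10 thus lay on opposite sides, the root above the shoot for ACT8 and below it for UBQ10, though UBQ10 turned sign with library size alone (0.18).

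Light signalling genes were mostly higher in shoot: 18 of 25, with 1 higher in root (median -2.17). Over all genes tested, the shares were 24.3% and 17.3%. PIL6, the PIF5 factor, had 0.370, 0.276 and 0.347 CPM in root, against 126, 139.8 and 98.6 CPM in shoot, at least 122-fold lower in root, and PIF7 had 0, 0.276 and 0.347 CPM in root, against 36.3, 30.2 and 25.5 CPM in shoot, at least 30.9-fold lower. These PIF factors promote stem elongation in shade or warmth. STO, a B-box protein also known as BBX24, had 62.5, 65.2 and 73.2 CPM in root, against 338, 298 and 237 CPM in shoot (-2.17 ± 0.13). BBX21, a B-box protein that activates HY5, was the one higher in root, at 214, 223 and 234 CPM in root, against 89.9, 103 and 82.0 CPM in shoot (1.24 ± 0.12).

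Of the 11 genes that the study singled out, 9 had enough counts to be tested. SAUR40 and SAUR77, which the study also measured by qPCR, had not. ACT7 served the study as a qPCR control. PIF4, the thermomorphogenesis factor, had 0.370, 0.276 and 1.04 CPM in root, against 40.3, 44.1 and 23.4 CPM in shoot, at least 36.2-fold lower in root. CPD, an enzyme of brassinosteroid synthesis, had 36.6, 30.4 and 29.8 CPM in root, against 229, 217 and 186 CPM in shoot (-2.76 ± 0.13). AT5G01990, the auxin transport facilitator PILS6, was higher in root at 21.8, 37.8 and 32.3 CPM in root, against 12.8, 18 and 10.2 CPM in shoot (1.1 ± 0.23), a call lost without the second root library (0.94) or the third shoot library (0.91). The others did not pass: HY5 at -0.64 ± 0.23, IAA19 at 0.93 ± 0.37, BAS1 at -0.52 ± 0.31, CYP72C1 (SOB7) at 0.96 ± 0.27, HSP90.1 at -0.26 ± 0.29 and ACT7 at 0.48 ± 0.11. Of these, HY5, BAS1 and HSP90.1 turned sign with library size alone. IAA19 passed without the second shoot library (1.38) or the first root library (1.02), and CYP72C1 without the first shoot library (1.19) or in the joint fit at 22 °C (1.01). CPD, CYP72C1, AT5G01990, STO and PIF7 overlap a gene on the other strand.

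The hy5-215 libraries taken after 4 h at 28 °C gave a second reading of the same organ difference in other libraries. There 6959 of 17451 genes (39.9%) were called (63.9% with the adjusted p alone), 2996 higher in root (17.2%) and 3963 higher in shoot (22.7%). Of the 2949 genes higher in root at 22 °C, 2861 were tested at 28 °C, 2835 had the same sign and 2340 were called the same way, which is 79.35% of the calls at 22 °C and 78.1% of those at 28 °C. Of the 4138 higher in shoot, 4024 were tested, 3971 had the same sign and 3451 were called the same way (83.4% and 87.08%). Calls in opposite directions numbered 2 and 5. The 61 photosynthesis genes were again all higher in shoot, with a median of -6.91, while the endodermis list had a median of 2.28 at 28 °C.

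The organ difference of 674 of 18160 genes (3.71%) differed between 28 °C and 22 °C, when tested in the 12 hy5-215 libraries, with 435 positive (2.40%) and 239 negative (1.32%). The 4 with the smallest adjusted p were APR3, AT3G59930, SZF1 and WRKY33. APR3, an enzyme of sulfate assimilation, had 50.4, 54.0 and 64.9 CPM in root, against 39.6, 32.0 and 31.8 CPM in shoot at 28 °C. At 22 °C it had 34.7, 33.7 and 29.8 CPM in root, against 105, 116 and 125 CPM in shoot, and the difference of the organ differences was 2.55 ± 0.20 (adjusted p = 9.03e-12, edgeR). AT3G59930, a defensin-like protein, had 104, 116 and 118 CPM in root, against 115, 122 and 133 CPM in shoot at 28 °C. Its values at 22 °C were 85.4, 99.9 and 122 CPM in root, against 19.6, 18.7 and 23.4 CPM in shoot (difference -2.42 ± 0.19), the shoot libraries being the ones that stood apart between the temperatures.

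The other 2 are regulators of stress and defence. SZF1, a zinc finger protein of salt stress, had 46.8, 44.9 and 59.2 CPM in root, against 70.3, 92.3 and 131 CPM in shoot at 28 °C. At 22 °C it was at 19.2, 30.1 and 30.5 CPM in root, against 376, 337 and 343 CPM in shoot (difference 2.78 ± 0.23). WRKY33, a defence transcription factor, had 39.5, 37.9 and 57.7 CPM in root, against 22.3, 24.0 and 38.1 CPM in shoot at 28 °C. At 22 °C it was at 17.0, 26.5 and 20.5 CPM in root, against 109, 106 and 102 CPM in shoot (difference 3.0 ± 0.25). In both genes every shoot library was lower at 28 °C than at 22 °C. APR3 and WRKY33 overlap a gene on the other strand. Among the 22 endodermis genes 4 had a negative interaction, against 1.32% of all genes tested, ABCG6 among them (-2.30 ± 0.36).

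In Col-0 at 22 °C, 6779 of 16324 genes (41.5%) differed between root and shoot (62.8% with the adjusted p alone), 2837 higher in root (17.4%) and 3942 higher in shoot (24.1%). Its root libraries were shallower, with 1212281 to 1828946 counts. Of the genes higher in root in hy5-215, 2482 were tested in Col-0, 2452 had the same sign and 2033 were called the same way, which is 68.94% of the calls in hy5-215 and 71.66% of those in Col-0. Of the genes higher in shoot, 3975 were tested, 3920 had the same sign and 3432 were called the same way (82.94% and 87.06%). Only 9 genes were called in opposite directions.

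**Figure D3:**
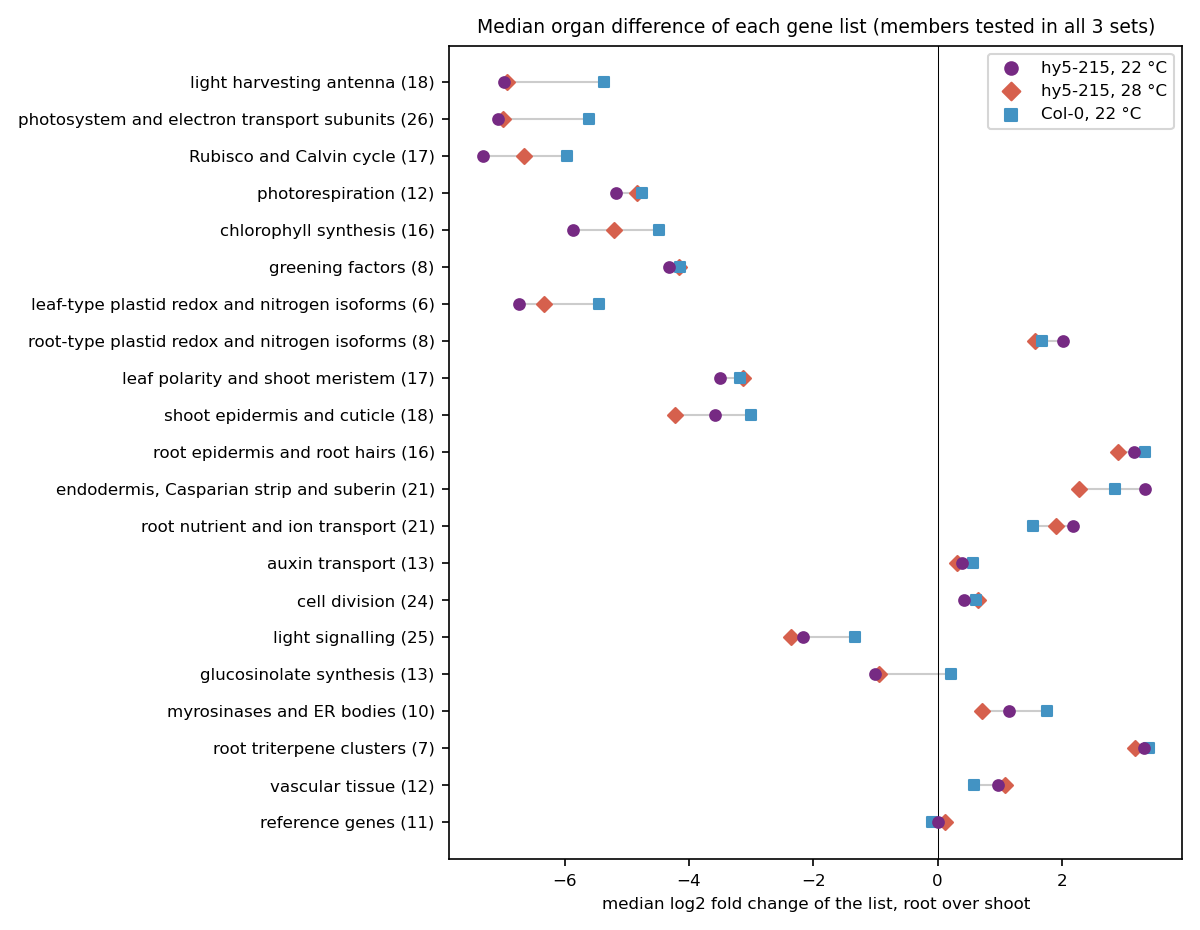
Median log2 fold change of root over shoot for each gene list in hy5-215 at 22 °C (circles), hy5-215 at 28 °C (diamonds) and Col-0 at 22 °C (squares), 3 sets of 6 libraries that share none, over the members tested in all 3 (number in brackets). The medians of the 3 photosynthesis lists lie between -7.32 and -6.66 in hy5-215 and between -5.95 and -5.36 in Col-0. The lists with 5 or more genes at the floor and the flavonoid list, of which 2 genes were tested in every set, are left out, as are the genes the study singled out.

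Whether the organ difference itself differed between the genotypes was tested as an interaction in the 12 libraries at 22 °C, as the log2 fold change of root over shoot in hy5-215 minus that in Col-0. It was called for 1161 of 17911 genes (6.48%), 502 with a positive value (2.80%) and 659 with a negative one (3.68%). The share that was positive, 43.24%, was 33.17% with DESeq2 and 61.0% with library size alone, so it rests on the scaling. For 487 of the 1161 genes both genotypes were called the same way and the difference was larger in hy5-215, for 410 of them towards the shoot. It was smaller in hy5-215 for 82, opposite for 8, called in hy5-215 alone for 219, in Col-0 alone for 166 and in neither for 199.

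The distance between the organs was larger in hy5-215 for photosynthesis genes. All 61 were higher in shoot in both genotypes, with a median of -5.61 in Col-0, and 56 of the 61 had a negative interaction, against 3.68% of all genes tested, while none had a positive one. The median interaction was -1.34, and -1.38 with DESeq2 (58 negative) or -1.20 with library size alone (53 negative). Summed CPM in Col-0 were 4507, 3842 and 4404 in root and 213784, 185874 and 191078 in shoot, so that root stood at 0.886% of shoot in hy5-215 and at 2.16% in Col-0. In hy5-215, then, the sum was lower in root and higher in shoot than in Col-0. For the shoot markers as a whole, root stood at 0.763% of shoot in hy5-215 and 2.06% in Col-0. That sum is no separate reading, as it shares RBCS1A, RCA, LHCA1, LHCB3, LHCB6 and PSAD-1 with the 61. RBCS1A alone was at 28384 CPM of a mean 58145 CPM in hy5-215 shoot. In 3 shoot lists without the 61 genes the genotypes were closer in ratio, with the value of hy5-215 the lower in each. Root stood at 3.50% of shoot in hy5-215 and 4.35% in Col-0 for stomatal genes, on mean root sums of only 10.3 and 12.6 CPM. The values were 11% and 13% for the cuticle list, and 28.8% and 37.3% for leaf development. The part of shoot material in the root samples of either genotype was not tested.

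Single genes show both sides of that change. RBCS1A, given above for hy5-215, had 354, 316 and 336 CPM in root, against 22123, 19113 and 21001 CPM in shoot in Col-0, an interaction of -1.38 ± 0.14 (adjusted p = 3.30e-09, edgeR). LHB1B2, an antenna protein, had 93.5, 115 and 130.4 CPM in root, against 13968, 13249.6 and 11587 CPM in shoot in hy5-215. Its Col-0 values were 258, 207 and 262 CPM in root, against 7666, 7205 and 7415 CPM in shoot, an interaction of -1.89 ± 0.16. RCA had an interaction of -1.56 ± 0.16. GUN5, of chlorophyll synthesis, had 53.9, 45.5 and 41.6 CPM in root, against 1462, 1347 and 1361 CPM in shoot in Col-0, and its interaction was -1.97 ± 0.19.

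In the lists of organ development the interaction was called for none of 15 stomatal genes (7 of the 10 tested in hy5-215 were at the floor in root), for 2 of 17 leaf development genes, both negative, and for 1 of 17 root meristem, 1 of 19 root hair and 1 of 22 endodermis genes, against 6.48% of all genes tested. Among the reference genes 2 did, both positive, though none did with RLE size factors. Of the 21 ion uptake genes 3 were positive, against 2.80% of all genes tested.

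Genes of the flavonoid pathway make the flavonols and anthocyanins that screen light. In hy5-215 only 4 of the 12 had enough counts to be tested, and none was higher in root and 2 in shoot. Over all genes tested, the shares were 17.3% and 24.3%. Of 8 tested in Col-0, 6 were higher in root and 2 in shoot, against 17.4% and 24.1% of all genes tested. All 12 genes summed to 87.6, 71.2 and 55.5 CPM in hy5-215 root and 129.7, 142 and 91.8 CPM in hy5-215 shoot. In Col-0 they summed to 1035, 859 and 752 CPM in root and 327, 215 and 227 CPM in shoot. Of 8 tested for the interaction, 5 were negative and none was positive, against 3.68% and 2.80% of all genes tested (median -2.40).

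TT4, chalcone synthase, which commits to the pathway, had 48.8, 34.5 and 31.6 CPM in root, against 64.8, 67.2 and 37.8 CPM in shoot in hy5-215, organs that overlapped and did not pass the fold rule (-0.63 ± 0.18). In Col-0 it had 609.8, 466 and 412 CPM in root, against 177, 116 and 121 CPM in shoot, and the interaction was -2.42 ± 0.25 (adjusted p = 1.80e-09, edgeR). TT5, chalcone isomerase, had 6.65, 4.42 and 3.47 CPM in root, against 24.6, 28.5 and 18.3 CPM in shoot in hy5-215. The Col-0 values were 69.9, 94.0 and 84.5 CPM in root, against 52.5, 33.1 and 32.5 CPM in shoot (interaction -3.38 ± 0.32). The Col-0 root, the highest of the 4 groups for both genes, was not matched by any hy5-215 library.

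CHIL, a chalcone isomerase-like protein that raises flux through the pathway, had 14, 11.9 and 10.8 CPM in root, against 40.8, 42.1 and 41.7 CPM in shoot in hy5-215. Col-0 libraries held 161, 159 and 139 CPM in root, against 60.6, 50.7 and 48.1 CPM in shoot, and its interaction (-3.29 ± 0.22, adjusted p = 4.86e-14, edgeR) had the smallest adjusted p of all genes. FLS1, flavonol synthase, had 3.70, 6.35 and 3.82 CPM in root, against 14.2, 8.82 and 5.53 CPM in shoot in hy5-215, a call that was lost without the first shoot library (-0.69), the first root library (-0.87) or the third root library (-0.88). In Col-0 the levels were 125, 108 and 105 CPM in root, against 29.7, 24.5 and 25.3 CPM in shoot (interaction -3.05 ± 0.36). F3H, flavanone 3-hydroxylase, chosen after its values were seen, had 25.9, 24.0 and 14.2 CPM in root, against 13.3, 17.3 and 14.5 CPM in shoot in hy5-215. In Col-0 it had 188, 161 and 123 CPM in root, against 30.5, 16.7 and 17.3 CPM in shoot (interaction -2.38 ± 0.31).

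TT5, CHIL and FLS1 were 3 of the 8 genes called towards the shoot in one genotype and towards the root in the other with a called interaction. SQN, a cyclophilin 40 of shoot maturation, was another, with 27.0, 30.9 and 38.8 CPM in root, against 152, 154 and 261 CPM in shoot in hy5-215. The Col-0 values were 31.0, 26.5 and 33.5 CPM in root, against 9.03, 9.02 and 11.4 CPM in shoot (interaction -4.16 ± 0.30). Its root levels were alike in the genotypes and its shoot levels were not. SQN, TT4 and F3H overlap a gene on the other strand.

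Of the 25 light signalling genes, 1 had a positive and 5 had a negative genotype interaction, against 2.80% and 3.68% of all genes tested. CRY3, a cryptochrome of plastids and mitochondria, is not in this list. It had 1.85, 1.93 and 1.73 CPM in root, against 23.6, 23.1 and 22.5 CPM in shoot in hy5-215. Col-0 libraries held 55.8, 38.5 and 44.9 CPM in root, against 24.9, 22.8 and 27.4 CPM in shoot, and the interaction was -4.50 ± 0.35 (adjusted p = 1.84e-12, edgeR). Shoot libraries of the genotypes overlapped, whereas every hy5-215 root library was far below every Col-0 root library.

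HYH, the closest relative of HY5, had 6.28, 4.14 and 7.28 CPM in root, against 71.2, 70.9 and 83.7 CPM in shoot in hy5-215. In Col-0 the levels were 38.9, 27.0 and 32.2 CPM in root, against 91.6, 79.0 and 81.4 CPM in shoot (interaction -2.33 ± 0.27). SPA1, a partner of the ubiquitin ligase COP1, which degrades HY5, had 22.9, 26 and 22.9 CPM in root, against 54.5, 74.3 and 74.8 CPM in shoot in hy5-215. In Col-0 it had 45.0, 64.0 and 77.8 CPM in root, against 56.3, 56.2 and 63.7 CPM in shoot (interaction -1.56 ± 0.23). Both were chosen after their values were seen, and both again had shoot levels close to those of Col-0 and root libraries below those of Col-0. HY5 transcript itself had an interaction of -1.39 ± 0.28.

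**Figure D4:**
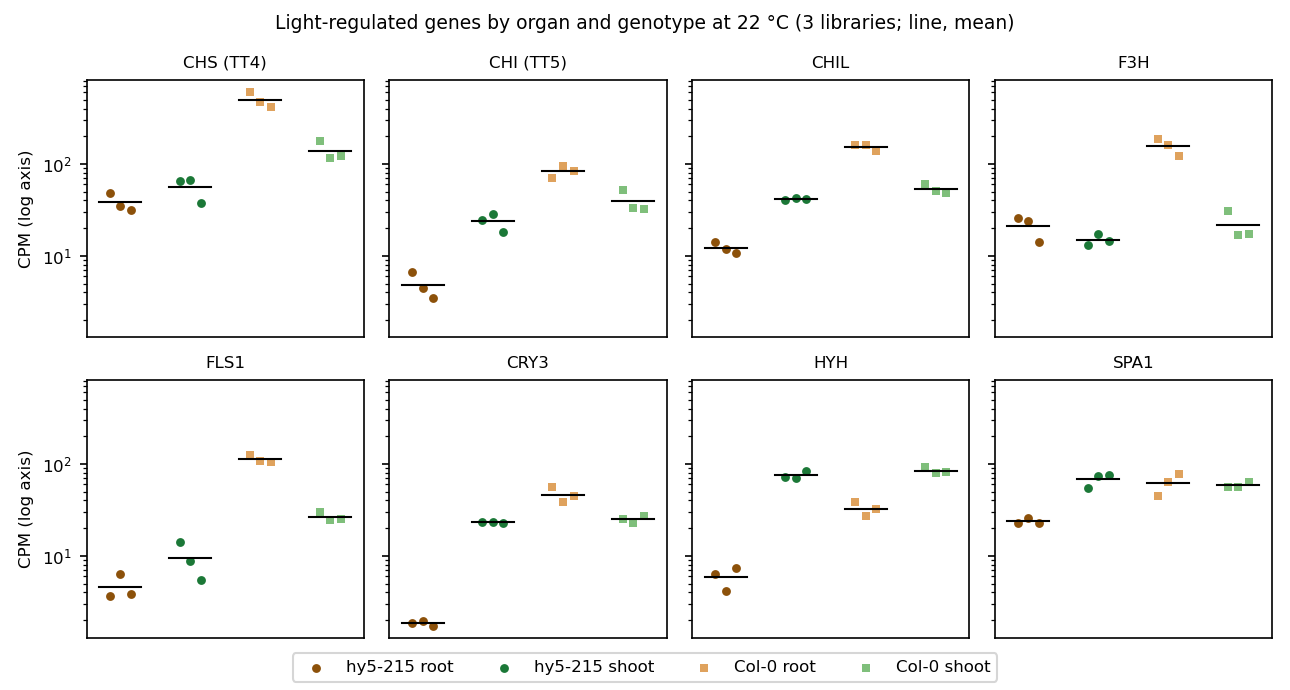
CPM in each library at 22 °C (log axis) of 8 genes in hy5-215 root, hy5-215 shoot, Col-0 root and Col-0 shoot, with the mean of 3 libraries as a line. For all 8 genes the hy5-215 root libraries lie below the Col-0 root libraries, while the shoot libraries of CRY3, HYH and SPA1 lie at similar levels in both genotypes.

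Other genes among the 10 with the smallest adjusted p also had lower root levels in hy5-215. AT5G57785, an uncharacterized protein, had 1.48, 1.66 and 1.04 CPM in root, against 74.6, 59.7 and 66.7 CPM in shoot in hy5-215. The Col-0 values were 60.0, 45.5 and 32.2 CPM in root, against 67.1, 70.0 and 68.3 CPM in shoot (interaction -4.96 ± 0.34). DIC2, a mitochondrial dicarboxylate carrier, had 5.54, 6.90 and 3.82 CPM in root, against 143, 134 and 139.8 CPM in shoot in hy5-215. Col-0 libraries held 38.9, 37.0 and 46.3 CPM in root, against 95.4, 99.6 and 100 CPM in shoot (interaction -3.35 ± 0.24). CAF1a, a subunit of the mRNA deadenylase, was at 3.70, 2.76 and 4.86 CPM in root, against 166, 144 and 126 CPM in shoot in hy5-215. In Col-0 it was at 44.1, 45.0 and 56.3 CPM in root, against 195, 192 and 193 CPM in shoot (interaction -3.26 ± 0.26). At 28 °C the organ difference of DIC2 and CAF1a in hy5-215 was smaller, at -1.86 and -2.25.

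The 4 positive genes of the 10 are inducible genes of detoxification and defence. CYP81D11, a cytochrome P450, had 178, 188 and 198 CPM in root, against 179.7, 194 and 169.6 CPM in shoot in hy5-215, organs that overlapped. In Col-0 the levels were 54.4, 71.5 and 68.4 CPM in root, against 279, 276 and 309.6 CPM in shoot (interaction 2.22 ± 0.17). OPR1, an oxophytodienoate reductase, had 221, 225 and 191 CPM in root, against 201, 187 and 142 CPM in shoot in hy5-215. In Col-0 it had 88.2, 87.5 and 77.1 CPM in root, against 326, 286 and 290.2 CPM in shoot (interaction 2.1 ± 0.17). CYP81D11 overlaps a gene on the other strand and OPR1 one on its own.

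GSTU24, a glutathione transferase, had 177, 205 and 159 CPM in root, against 61.9, 49.5 and 38.3 CPM in shoot in hy5-215. The Col-0 values were 71.3, 80.5 and 61.7 CPM in root, against 113, 112 and 111 CPM in shoot (interaction 2.52 ± 0.20). UPI, a protease inhibitor, had 137, 189.9 and 204 CPM in root, against 109, 117 and 92.7 CPM in shoot in hy5-215. Col-0 libraries held 57.7, 68.5 and 69.1 CPM in root, against 195, 217 and 206 CPM in shoot (interaction 2.41 ± 0.19). For these 4 genes the root was higher and the shoot lower in hy5-215 than in Col-0. The aquaporin PIP1B also had a positive interaction (1.14 ± 0.13), with 926, 1008 and 1076 CPM in root, against 1402, 1281 and 1329 CPM in shoot in Col-0.

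The promoters of 3 genes with a negative interaction and of the antenna gene LHCB2.3 are shown because each holds a G-box. They are the 250 bases before the annotated start of each gene in the RefSeq annotation of TAIR10.1, 5′ to 3′ on the strand of the gene, with the G-box CACGTG in capitals. That of TT4 lies at chr5:4488226-4488475 (plus strand), that of CHIL at chr5:1563036-1563285 (plus), that of F3H at chr3:19024942-19025191 (plus) and that of LHCB2.3 at chr3:10255656-10255905 (plus).
TT4: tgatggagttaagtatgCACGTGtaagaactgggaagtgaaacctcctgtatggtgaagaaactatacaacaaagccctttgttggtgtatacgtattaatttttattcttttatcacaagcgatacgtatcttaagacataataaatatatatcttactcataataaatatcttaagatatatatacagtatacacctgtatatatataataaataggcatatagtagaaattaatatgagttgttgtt
CHIL: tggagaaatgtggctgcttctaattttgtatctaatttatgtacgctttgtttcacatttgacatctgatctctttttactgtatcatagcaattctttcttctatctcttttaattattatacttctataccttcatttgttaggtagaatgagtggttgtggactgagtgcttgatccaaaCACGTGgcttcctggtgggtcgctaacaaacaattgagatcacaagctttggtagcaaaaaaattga
F3H: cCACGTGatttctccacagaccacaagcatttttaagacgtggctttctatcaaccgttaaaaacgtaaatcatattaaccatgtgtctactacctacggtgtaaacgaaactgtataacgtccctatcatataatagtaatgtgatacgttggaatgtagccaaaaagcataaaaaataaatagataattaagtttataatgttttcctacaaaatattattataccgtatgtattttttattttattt
LHCB2.3: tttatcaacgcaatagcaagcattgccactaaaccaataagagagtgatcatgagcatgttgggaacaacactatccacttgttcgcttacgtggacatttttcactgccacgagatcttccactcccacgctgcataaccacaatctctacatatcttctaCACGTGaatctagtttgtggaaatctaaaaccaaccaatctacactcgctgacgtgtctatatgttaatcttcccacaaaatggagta

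The G-box began 233 bases before the start in TT4, 67 in CHIL, 249 in F3H and 88 in LHCB2.3. Searched on both strands, CACGTG occurred in 7.431% of the 17009 promoters of genes tested in hy5-215, in 6.716% of those higher in root and in 8.315% of those higher in shoot. It occurred in 13.37% of 658 promoters of genes with a negative interaction, in 6.972% of 502 with a positive one and in 7.463% of all tested for it. The core ACGT, which every G-box contains, occurred in 54.1%, 50.2% and 44.55% of the same sets. Among list members, 12 of 61 photosynthesis promoters (19.67%) and 4 of 12 flavonoid promoters (33.33%) held CACGTG. The I-box GATAAG, known from light-regulated promoters, occurred in 10.69% of promoters of genes higher in root, 15.93% of those higher in shoot and 12.62% of all tested. The TATA box TATAAA occurred in 51.73%, 43.65% and 46.15%. Neither of these motifs contains ACGT. These are matches of letters in a window, given as shares without a test, and binding was not measured here.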

How the data were processed

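Whole roots and shoots were sequenced by 3′Tag-Seq. Per the labels and the methods of the study, the authors checked the reads with FastQC, aligned them with HISAT2 and counted them per gene with HTSeq on TAIR10, and the deposited values are raw counts per gene identifier. Tool versions and the use of strand in counting are not given in the sources used here. None of the plastid or mitochondrial identifiers had a count.

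Genes were tested with edgeR 4.0.16 in R 4.3.3 (TMM scaling, filterByExpr at 10 counts per library and 15 in total, quasi-likelihood F test, Benjamini-Hochberg adjustment over all genes tested), each organ contrast on its own 6 libraries and each interaction on its 12. A call between organs needed a 2-fold change and an adjusted p no higher than 0.05, and one for an interaction the adjusted p alone. Errors of log2 fold changes are approximate standard errors, the fold change over the square root of F. Bounds used a floor of 3 counts per library. The genes named were, per list, the most abundant in each organ, those with the largest changes and those against the majority, any member of lists under 12, the genes the study singled out, the 5 with the largest changes and the 5 most abundant of all genes in each direction, and those with the smallest adjusted p of the interactions (10 by genotype, 4 by temperature). The organs, gene lists and tests were chosen with earlier results of these data known. Alternatives were DESeq2 1.42.0, other scalings and filters, a test against the 2-fold threshold, a replicate block, joint fits and leaving out each library.

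Gene names and promoters came from RefSeq on TAIR10.1, which matched 32548 of 33977 identifiers. Of 435 genes searched with blastn 2.17.0, 1 had a near-identical copy of its 3′ end elsewhere.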

Additional observations from a re-analysis of the deposited data

Results flagged for a closer look

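The following organ differences differed between conditions in the interaction test of edgeR, each at an adjusted p of at most 0.05, and are given as differences of log2 fold changes of root over shoot. Between hy5-215 and Col-0 at 22 °C, the flavonoid genes TT4, TT5, CHIL, FLS1 and F3H differed by -2.42, -3.38, -3.29, -3.05 and -2.38. HYH and SPA1 of the light signalling list differed by -2.33 and -1.56, and CRY3 and HY5, which are not in that list, by -4.50 and -1.39. The photosynthesis genes RBCS1A, LHB1B2 and RCA and the chlorophyll synthesis gene GUN5 differed by -1.38, -1.89, -1.56 and -1.97. AT5G57785, DIC2, SQN and CAF1a differed by -4.96, -3.35, -4.16 and -3.26. Positive differences were found for CYP81D11 (2.22), UPI (2.41), GSTU24 (2.52), OPR1 (2.1) and PIP1B (1.14). Between 28 °C and 22 °C within hy5-215, APR3, SZF1 and WRKY33 differed by 2.55, 2.78 and 3.0, and AT3G59930 and ABCG6 by -2.42 and -2.30.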

How the results depend on the processing

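The total counts of calls moved by more than 1.5 times where the 2-fold rule was dropped, and under no other alternative run: 11105 genes in hy5-215 at 22 °C, 11155 in hy5-215 at 28 °C and 10246 in Col-0. Without one library at a time the counts were 7267 to 7527, 7000 to 7245 and 6749 to 7498 for these comparisons, 890 to 1316 for the genotype interaction and 522 to 725 for the temperature interaction. DESeq2 called 6974 genes in hy5-215 at 22 °C and 998 for the genotype interaction. With library size alone 6364 genes were higher in root in hy5-215 at 22 °C, 6260 in hy5-215 at 28 °C and 4918 in Col-0, each over 1.5 times the count with TMM. Positive genotype interactions numbered 331 with DESeq2 and 790 with library size alone, against 502. Library size alone called 9397 in all in hy5-215 at 22 °C, and 68.57% of the calls in hy5-215 at 28 °C and 61.45% of those in Col-0 were then higher in root, against 43.05% and 41.85% with TMM.

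For samples of the same replicate number, r of their deviations was between -0.02 and 0.04 for the hy5-215 libraries at 22 °C. It was 0.003 to 0.072 in hy5-215 at 28 °C and 0.015 to 0.051 in Col-0 at 22 °C. Between unlike numbers it was -0.041 to 0.037, -0.080 to 0.023 and -0.048 to 0.006 in these sets. Such low values cannot settle whether root and shoot of a number were paired. With a replicate block the calls were 7087 at 22 °C, 6943 at 28 °C, 6765 in Col-0, 1175 for the genotype interaction and 780 for the temperature interaction. Without the block the temperature interaction had 674.

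Of 2694 alternatives run for 165 pairs of a named gene and a comparison, 2628 kept direction and call. With library size alone the sign turned for GAPC2 (0.45), AN3 (0.59), HY5 (0.045), BAS1 (0.17), HSP90.1 (0.42), UBQ10 (0.18), ACT2 (0.54) and TT4 (0.062). CYP81D11, near 0 in hy5-215, ranged from -0.060 to 0.066 without one library at a time and was -0.0036 in the joint fit of 12 hy5-215 libraries. AN3 ranged from -0.23 to 0.12. Of 150 list counts, 142 stayed within 1.5 times, and the other 8 moved with library size alone, among them flavonoid genes higher in root (1 instead of 0) and in shoot (1 instead of 2). The cause of these changes was not tested. Genes with few counts in an organ are limited by depth and have bounds only.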

Other observations

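Gene families that were chosen after results were seen add to the description of hy5-215 at 22 °C. Class III peroxidases, which cross-link or loosen cell walls, had 69 members, of which 44 were tested, 34 were higher in root and 3 in shoot, with a median log2 fold change of 2.86, or 2.6 with the bounds of genes at the floor. Extensins, structural wall proteins, had 12 of 14 tested members higher in root and 1 in shoot (median 3.08). Jacalin and mannose-binding lectins had 11 of 19 higher in root and 4 in shoot (median 1.5). SAUR-like genes, small and quickly auxin-responsive, went the other way, with 7 of 35 higher in root and 22 in shoot (median -3.25, or -2.88 with bounds). Cytochrome P450s, a family of many functions, had 50 of 129 higher in root and 52 in shoot (median 0.16). These counts stand beside 17.3% and 24.3% of all genes tested.

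Aquaporins of the plasma membrane and tonoplast were divided in hy5-215, with 6 of 18 higher in root and 4 in shoot, but 9 of the 18 had a positive genotype interaction and 1 a negative one, against 2.80% and 3.68% of all genes tested. Their summed CPM were 12779, 12241 and 11680.4 in hy5-215 root and 8511, 8939.97 and 8306 in hy5-215 shoot. In Col-0 they were 6363, 6249 and 6011 in root and 7738, 7143 and 7347 in shoot. The root sum was thus 142% of the shoot sum in hy5-215 and 83.8% in Col-0. Of the 47 peroxidases tested for the temperature interaction, 11 were negative and 1 was positive, against 1.32% and 2.40% of all genes tested.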
